A study of Mus musculus with 44 samples.

Results

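The genes described here are 31 presynaptic genes of neurons, chosen by symbol and matched to Ensembl identifiers through GENCODE release M21. All 31 were present in every count file, among 50714 gene identifiers shared by the whole series. The rule is a fixed list of symbols and uses no measured value as a threshold. The 44 sequenced libraries came from mouse brains taken on postnatal day 28 or 29, and the tissue was hippocampus with dorsal cortex. Every mouse carried CX3CR1-CreERT2 (+/-), a tamoxifen-dependent Cre driven by the promoter of a microglial and macrophage receptor, and RPL10a-GFP flox (+/-), a floxed allele that tags ribosomes with GFP after recombination. The series design gives the RPL10a-GFP allele as fl/fl, so the labels and the design differ on it. Tamoxifen was given at 100 mg/kg per dose, on p15, p17 and p19 (postnatal days). Controls carried the same alleles and got vehicle per the labels, although the design calls them untreated. The fraction named Input held total homogenate RNA, and MG_TRAP was the RNA bound to ribosomes pulled down from it through GFP (translating ribosome affinity purification, TRAP). SN_input held total RNA of synaptosomes, a preparation rich in detached nerve endings and what adheres to them, and PeMP_TRAP, named SN_TRAP in replicates G to K, was the pull-down from that fraction. In every fraction, 3 libraries were from controls (lettered A, B and C) and 8 from tamoxifen mice (lettered D to K). Letters A to F and letters G to K came as separate sets, told apart by the style of their titles, and control libraries occurred only among A to F. Whether a letter stands for 1 animal or a pool was not given in the sources used here, so p-values may measure only the spread between libraries.

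Nerve terminals store transmitter in synaptic vesicles, dock these at the active zone, and release them when calcium enters and SNARE proteins pull vesicle and plasma membrane together. The messenger RNAs of these proteins are transcribed and mostly translated in the neuronal cell body, and some are carried into axons and found in synaptosome preparations. Microglia touch and engulf synaptic material but do not build vesicle release machinery of this kind, so in a microglial pull-down these RNAs are a customary gauge of neuronal RNA. By role, the 31 genes comprise 2 vesicle phosphoproteins (Syn1, Syn2), 7 vesicle membrane or vesicle-bound proteins (Syp, Syt1, Sv2a, Sv2b, Syngr1, Syngr3, Rab3a), 6 genes of the SNARE machinery (Snap25, Stx1a, Vamp2, Cplx1, Cplx2, Napb), 5 active zone genes (Rims1, Bsn, Pclo, Unc13a, Erc2), 2 calcium channel subunits (Cacna1a, Cacna1b), the adhesion protein Nrxn3, 2 vesicular glutamate transporters (Slc17a7, Slc17a6), 3 genes of GABA neurons (Slc32a1, Gad1, Gad2), 2 endocytosis genes (Dnm1, Amph) and the synuclein Sncb.

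Promoters of these genes were searched for short motifs, as a description only. RefSeq promoters (250 bases before to 50 after the start, GRCm38.p6) were found for 27 of the 31 genes, 36 promoters in all. The search covered both strands for the GC box GGGCGG, the cyclic AMP response element TGACGTCA, and the left (TTCAGCACC) and right (GGACAGCGC) parts of RE1, the element bound by REST, a repressor of neuronal genes outside neurons. The GC box was in 20 of the 36 promoters, which belong to 20 genes, against 35.7% of all 32851 promoters in the table. The cyclic AMP response element was in the Syn1 promoter (1.79% of all promoters). The left RE1 part was in Syn1 and Unc13a (0.371% of all), and the right part was in Gad2 and Unc13a (0.405% of all). The 3 promoters with an RE1 part follow, with Syngr1, the gene called higher in the synaptosome pull-down. Each reads 5′ to 3′ in the gene's direction, and capitals mark the motifs named.
Syn1, chrX:20920869-20921168, minus strand: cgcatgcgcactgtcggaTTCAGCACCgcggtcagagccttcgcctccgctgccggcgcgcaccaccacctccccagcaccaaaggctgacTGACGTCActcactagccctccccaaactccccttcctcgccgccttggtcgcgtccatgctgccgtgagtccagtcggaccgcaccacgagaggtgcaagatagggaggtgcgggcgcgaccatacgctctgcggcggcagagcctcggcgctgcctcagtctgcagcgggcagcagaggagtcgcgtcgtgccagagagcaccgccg
Unc13a, chr8:71671708-71672007, minus strand: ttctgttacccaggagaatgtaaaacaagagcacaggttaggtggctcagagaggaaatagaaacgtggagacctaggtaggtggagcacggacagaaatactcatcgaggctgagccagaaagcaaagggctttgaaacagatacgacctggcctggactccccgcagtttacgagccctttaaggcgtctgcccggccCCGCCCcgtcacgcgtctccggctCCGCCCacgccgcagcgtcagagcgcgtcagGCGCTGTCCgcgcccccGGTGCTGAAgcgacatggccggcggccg
Gad2, chr2:22622077-22622376, plus strand: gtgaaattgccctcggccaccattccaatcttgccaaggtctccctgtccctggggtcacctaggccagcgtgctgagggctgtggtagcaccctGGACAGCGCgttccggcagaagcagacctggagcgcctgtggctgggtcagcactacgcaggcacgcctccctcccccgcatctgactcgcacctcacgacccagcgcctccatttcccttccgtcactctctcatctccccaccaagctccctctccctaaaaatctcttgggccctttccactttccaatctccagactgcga
Syngr1, chr15:80091084-80091383, plus strand: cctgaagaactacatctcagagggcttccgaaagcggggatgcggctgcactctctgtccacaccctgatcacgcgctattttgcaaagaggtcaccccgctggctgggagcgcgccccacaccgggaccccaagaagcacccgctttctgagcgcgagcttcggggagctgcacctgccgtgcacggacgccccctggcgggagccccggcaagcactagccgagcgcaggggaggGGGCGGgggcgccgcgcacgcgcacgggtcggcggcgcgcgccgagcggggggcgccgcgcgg
The Syngr1 window held a GC box and none of the other motifs. In Unc13a the GC boxes and both RE1 parts lay on the strand opposite to the gene. These matches describe letters in a window and were not tested against any measurement.

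Assigned reads ranged from 746616 to 35584637 per library, and a floor of 3 counts lay between 0.0847 and 4.05 CPM (read counts scaled to library size). Such floors cover counting error only, because amplified reads were not collapsed to molecules by identifiers. Microglial genes checked the pull-down. In tamoxifen mice, Tmem119 was 6.78 higher in MG_TRAP than in Input on the log2 scale and 3.80 higher in PeMP_TRAP than in SN_input. The list of 20 microglial genes held 0.0392% to 0.0622% of the reads in tamoxifen Input and 2.57% to 6.47% in tamoxifen MG_TRAP, with no gene of the list at 0 throughout either group. It held 0.503% to 1.13% in control MG_TRAP, above the 0.0625% to 0.0726% of control Input, so the control pull-downs also held microglial RNA. The transgene's GFP was not among the features counted.

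The 31 genes took a large share of the homogenate. In control Input they held 1.44%, 1.71% and 2.25% of all reads, and in tamoxifen Input 1.46% to 2.43% with a median of 2.14%. Control MG_TRAP held about as much (1.62%, 1.89% and 2.21%), whereas tamoxifen MG_TRAP held 0.221% to 1.10% with a median of 0.605%. All 8 tamoxifen MG_TRAP libraries lay below all 3 control ones and below all 8 tamoxifen Input libraries. SN_input held 1.07%, 1.51% and 1.52% in control mice and 0.443% to 1.01% in tamoxifen mice, so its tamoxifen libraries also lay below all 3 control ones. PeMP_TRAP held 0.787%, 1.37% and 2.09% in control mice and 0.139% to 0.427% in tamoxifen mice, the lowest median of the 8 groups at 0.266%. In these bulk samples, fewer cells of a type and less RNA per cell cannot be told apart.

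**Figure D1:**
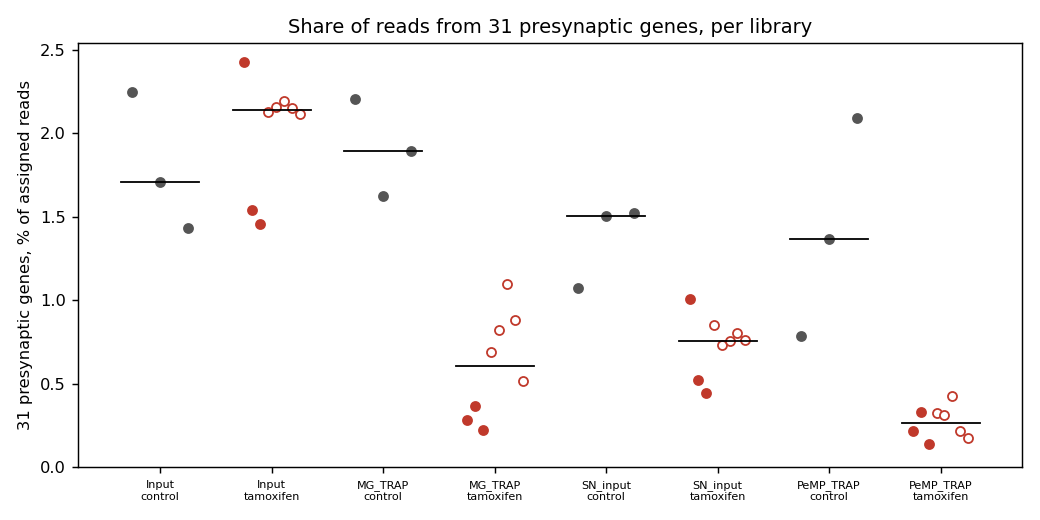
Share of all assigned reads held by the 31 presynaptic genes (vertical axis, percent) in each library, by fraction, with control libraries in grey, tamoxifen libraries in red, filled points for replicates A to F, open points for G to K, and a bar at each group's median. Tamoxifen MG_TRAP (0.221% to 1.10%) and PeMP_TRAP (0.139% to 0.427%) lie below their control libraries, and so does tamoxifen SN_input (0.443% to 1.01%), which is no pull-down.

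Among the genes, levels in Input spanned a wide range. Per kilobase of exon, Snap25, the plasma membrane SNARE protein, led in the G to K Input libraries at 509 ± 14.7 TMM-scaled CPM (SD, n = 5; TMM is a library scaling described below). It was followed by the vesicle GTPase Rab3a at 396 ± 28.2, the SNARE clamp Cplx1 at 338 ± 16.2, Sncb at 260 ± 13.9 and Vamp2 at 239 ± 11.97. These 5 ranges of mean and SD were apart from each other except for those of Sncb and Vamp2, which overlapped. At the other end stood Slc32a1, the vesicular GABA transporter, at 3.27 ± 0.262, the subcortical glutamate transporter Slc17a6 at 3.05 ± 0.774, and the P/Q-type channel subunit Cacna1a at 2.13 ± 0.427. In the D to F Input libraries the spread was far larger (Snap25 358 ± 176, Syt1 312 ± 183, Rab3a 278 ± 75.9, n = 3), and neighbours in that order did not differ beyond it. Replicates A and D were alike in Input and unlike B, C, E and F for several genes. Syn1 stood at 599 in both A and D and at 209 to 276 in B, C, E and F, while Cplx2 stood at 188 and 209 in A and D and at 751 to 1397 in the other 4. Between tamoxifen and control Input no gene of the 31 was called by edgeR's quasi-likelihood test (Benjamini-Hochberg adjusted p under 0.05, the call used throughout), limma voom or DESeq2. Over all genes the shares called were 0%, 0% and 0.325%, and none of the 31 had an unadjusted p under 0.05 by edgeR. That unadjusted threshold was met by 452 of all 14771 genes.

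**Figure D2:**
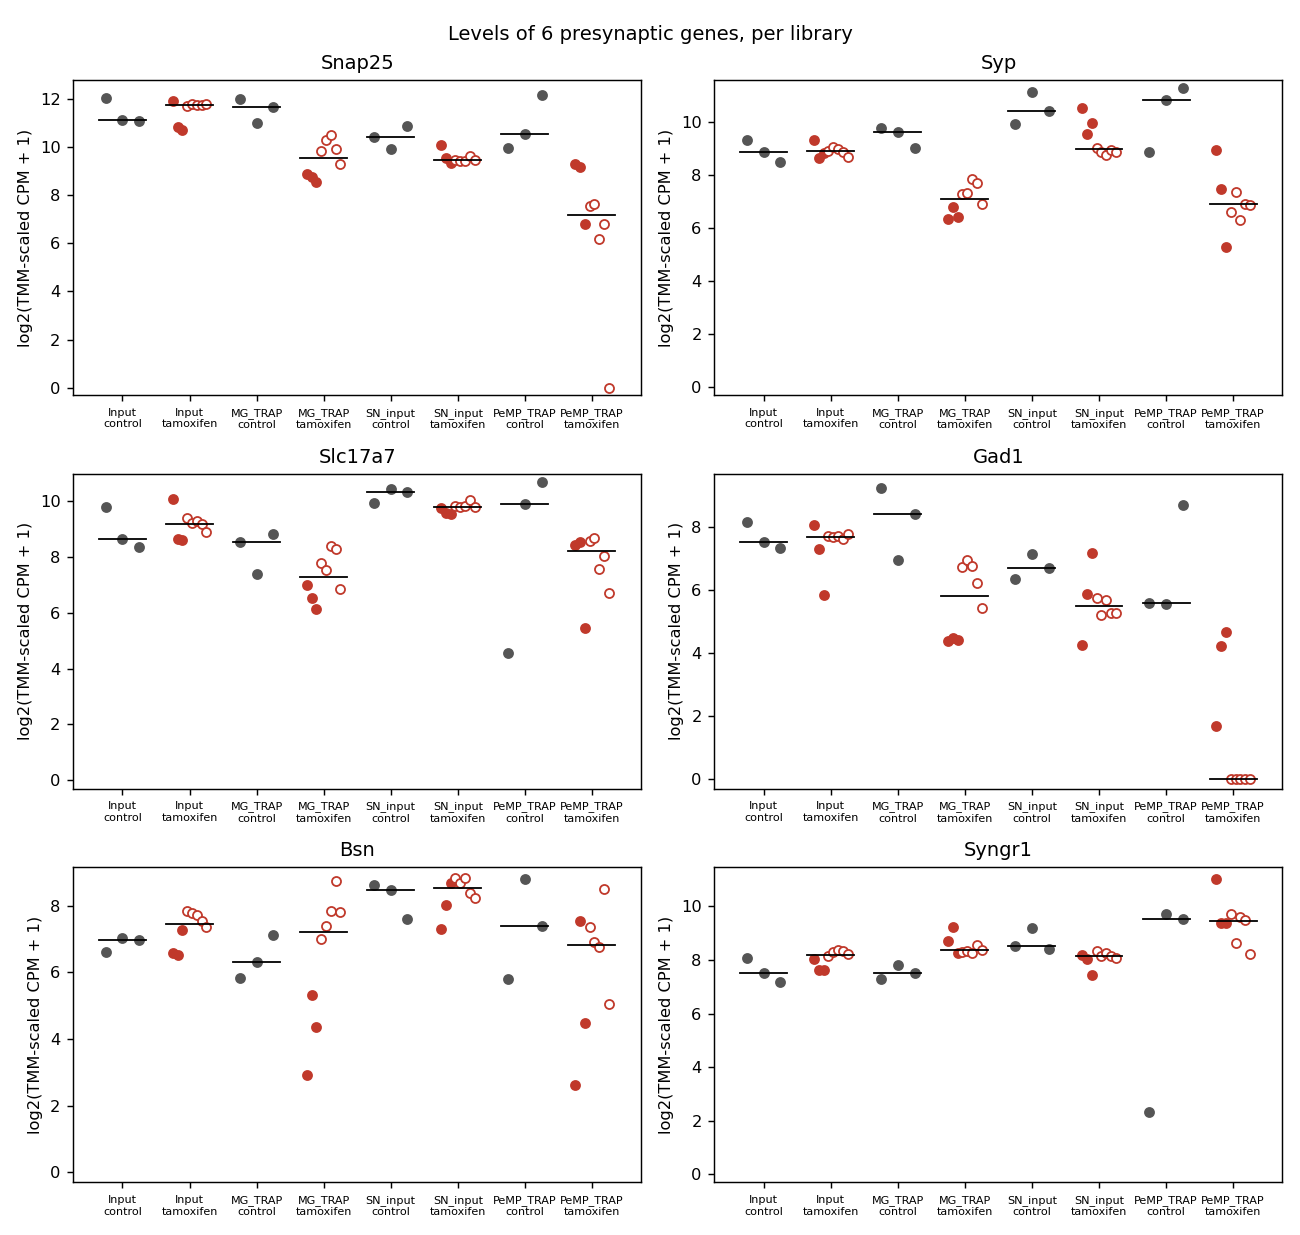
Levels of Snap25, Syp, Slc17a7, Gad1, Bsn and Syngr1 in every library as log2(TMM-scaled CPM + 1), by fraction and treatment, with points, colours and median bars as for the share of reads. In tamoxifen MG_TRAP, Syp lies between 79.6 and 225, below its control libraries at 514 to 870.3, whereas Syngr1 lies between 307 and 599.8, above its control libraries at 154 to 224.

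The synaptosome fraction was compared with the homogenate to see which presynaptic RNAs it held. In G to K, Snap25 and the GABA enzyme gene Gad1 made up less of SN_input than of Input, while the active zone scaffold gene Bsn did not fall with them. Rims1 did not fall in G to K, but in D it stood at 99.7 CPM in Input and 30.5 in SN_input. Fitted over all 32 tamoxifen libraries, 0 of the 31 genes were called higher and 0 lower, against 2.08% and 0.465% of all genes. At an unadjusted p under 0.05 edgeR gave 3 lower genes, limma voom called 1 (1.33% of all genes called) and DESeq2 3 (3.24%). Over all 15710 genes, 1764 had an unadjusted p under 0.05 by edgeR in either direction. The median of the 31 was -0.39 on the log2 scale against -0.02 over all genes tested, and 20 were negative. Fitted on the Input and SN_input libraries alone, 2 genes were called higher and 12 lower, against 11.7% and 7.31% of all genes. That fit among replicates G to K alone called 5 higher and 21 lower (24.7% and 23.3% of all genes), and among D to F alone it called 0 (0% of all genes), with 5 lower at an unadjusted p under 0.05. In the D to F fit, 761 of all 11288 genes met that unadjusted threshold in either direction. These narrower fits were chosen after seeing the data. Control SN_input against Input gave 0 calls by edgeR (0% of all genes), limma voom (0.00677%) and DESeq2 (0.907%), with a median of 0.30 and 0 of the 31 at an unadjusted p under 0.05. Over all 14771 genes, 1010 met that unadjusted threshold by edgeR.

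Values by library show the split. Snap25 in tamoxifen Input ranged from 1678 to 3806 CPM with a median of 3449, and in tamoxifen SN_input from 644 to 1078 with a median of 706. The groups did not overlap, and among G to K the difference was -2.30 ± 0.07 on the log2 scale (SE; edgeR adjusted p 2.0e-11). Gad1, which makes GABA from glutamate, stood at 196 to 217 in G to K Input and at 36.2 to 53.0 in G to K SN_input, a difference of -2.29 ± 0.12 (edgeR adjusted p 2.4e-09). In D to F it stood at 264, 156 and 56.3 in Input and at 18.2, 57.3 and 142 in SN_input, so F went the other way, and the difference was not called (-1.56 ± 0.87, edgeR adjusted p 0.74). The SNARE genes Cplx1 (-1.59 ± 0.09) and Stx1a (-1.47 ± 0.11) fell in that fit as well, as did Amph (-1.94 ± 0.21), Erc2 (-1.66 ± 0.24), Gad2 (-1.55 ± 0.15), Syn1 (-1.48 ± 0.20) and Sncb (-1.23 ± 0.08). Bsn moved the other way: it ranged from 163 to 230.2 in G to K Input and from 299 to 458 in G to K SN_input, a difference of 0.94 ± 0.13 (edgeR adjusted p 2.9e-05). Rims1 (0.90 ± 0.13), Cplx2 (0.71 ± 0.08), Slc17a7 (0.65 ± 0.09) and Slc32a1 (0.63 ± 0.25) were also called higher. Slc32a1 shares 24.9% of its exon bases with the opposite-strand gene Gm14205, and the library kit does not mark strand. Syp, Pclo, Syngr1, Cacna1a and Slc17a6 were called in neither direction among G to K, with differences from -0.73 to 0.41.

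How many genes stood higher in SN_input depends on the library scaling. In place of TMM, size factors by relative log expression (RLE) moved the median of all genes by -0.70 and total counts by -1.05, so changes are best read against the other genes. With that common shift, all 11 genes of the 31 that were positive under TMM changed sign under at least 1 of these scalings, which says nothing particular to them. Bsn went from 1.15 to 0.52 and -0.03. Over all genes, TMM called 327 higher and 73 lower, RLE 134 and 109, and total counts 93 and 230. On plain CPM among G to K, 2 of the 31 genes had a higher mean in SN_input than in Input: Bsn (348 against 309.7) and Rims1 (217 against 198). A ratio within a library needs no scaling. Bsn had 2.48 to 9.18 reads per 100 Snap25 reads in tamoxifen Input and 14.5 to 66.0 in tamoxifen SN_input, and 2.35 to 5.77 against 10.4 to 36.3 in control mice, with no overlap in either treatment. This ratio was chosen after the values of its genes were seen. Gad1 had 31.6 to 48.0 reads per 100 Slc17a7 reads in control Input and 7.90 to 10.2 in control SN_input, and 14.3 to 45.7 against 2.13 to 19.2 in tamoxifen mice. The tamoxifen ranges met because of replicate F, where Gad1 had 14.3 per 100 in Input and 19.2 in SN_input.

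**Figure D3:**
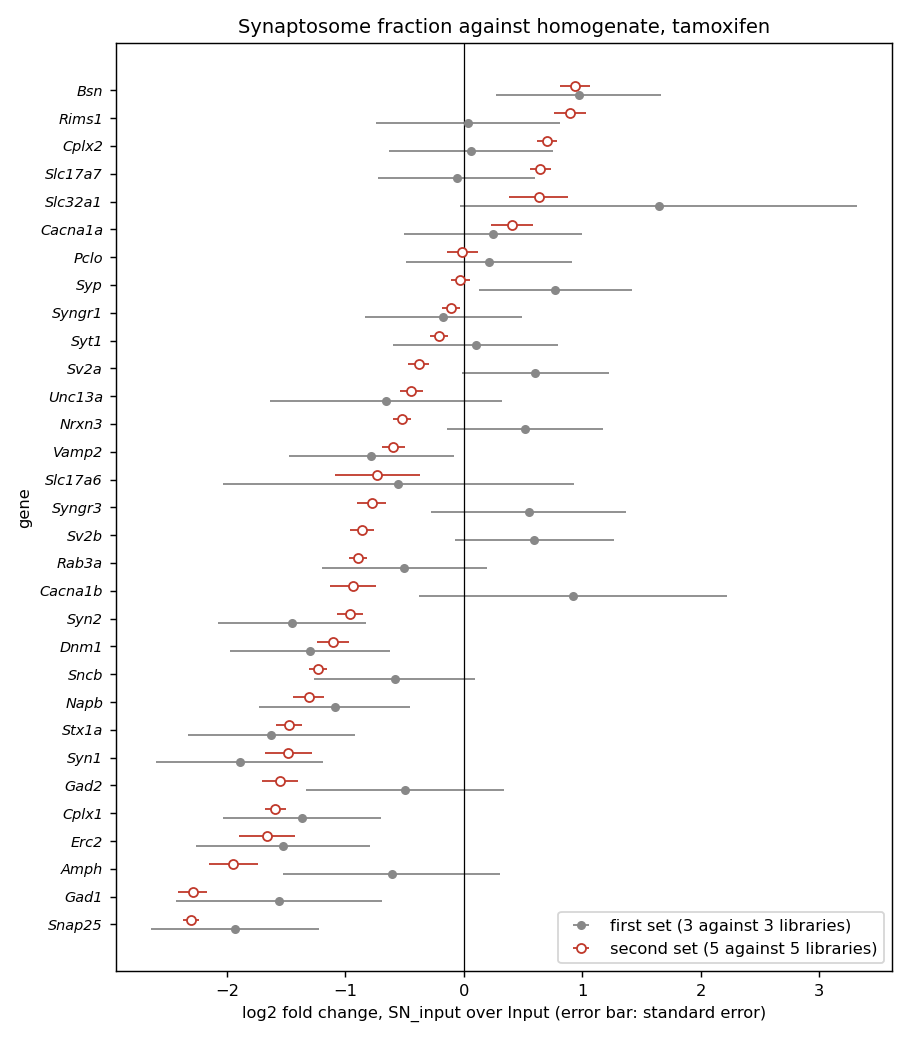
Log2 fold change of SN_input over Input in tamoxifen mice for each of the 31 genes, ordered by the G to K value, in fits of only these libraries, for D to F (filled, drawn as the first set) and G to K (open, drawn as the second set), with bars of 1 standard error. Snap25 lies at -1.93 in D to F and -2.30 in G to K, Gad1 at -1.56 and -2.29, and Bsn at 0.97 and 0.94, with far longer bars in D to F.

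Across all 8 tamoxifen replicates, the Input and SN_input libraries did not overlap for 1 higher gene, Slc32a1, and 5 lower genes, Syn1, Syn2, Snap25, Cplx1 and Napb (2.67% and 2.11% of all genes). Among D to F they did not overlap for 4 higher (Syp, Sv2a, Bsn and Slc32a1) and 5 lower genes (6.25% and 9.59%). Syp, a vesicle membrane protein, stood at 1459, 732 and 985 in D to F SN_input against 636, 399 and 446 in Input, but at 426 to 514 against 410.2 to 529 in G to K. Its levels were thus higher in SN_input in D to F and overlapped Input in G to K. The difference between the sets was not called for any of the 31 genes by edgeR or limma voom (0% and 0% of all genes called), nor did any reach an unadjusted p under 0.05 by edgeR. Of all 17961 genes, 619 reached it. Lists of glial genes were read in the same fractions. Microglial genes held 0.0392% to 0.0622% of the reads in tamoxifen Input and 0.111% to 0.749% in SN_input, with a median of 3.69 (18 of 20 called higher, 0 lower). Astrocyte genes held 0.261% to 0.467% of the reads in tamoxifen Input and 0.520% to 1.15% in SN_input (4 of 15 called higher, 0 lower), and oligodendrocyte genes 0.425% to 0.926% and 0.387% to 6.25% (3 of 15 called higher, 0 lower). No gene of these 3 lists was at 0 throughout these groups. Their part in the shift of the 31 genes was not tested.

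Postsynaptic and cell body genes served as neighbours. In the fit over all tamoxifen libraries, the 30 postsynaptic and dendritic genes had a median of 0.02 (2 called higher, 0 lower), the 53 other presynaptic genes -0.19 (0 and 0) and the 20 neuronal soma and axon genes -0.72 (0 and 2). The 31 genes made up 34.5% to 54.2% of the reads of these neuronal genes (the 31, the postsynaptic and the soma lists) in tamoxifen Input and 30.7% to 44.7% in SN_input. In the G to K libraries the order of levels per kilobase changed as well. SN_input was led by Cplx2 at 238 ± 28.9, Rab3a at 216 ± 15.4 and Slc17a7, the cortical glutamate transporter, at 173 ± 12.5 (SD, n = 5), and the means of Cplx2 and Rab3a lay within their spread of each other. Snap25, at rank 1 in Input, was at rank 8 with 105 ± 5.78.

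In control mice, whose ribosomes should lack GFP without recombination, the pull-down from the homogenate gave no call among the presynaptic genes against Input. None of the 31 was called by edgeR (0.0135% of all genes called) and none had an unadjusted p under 0.05, against 1101 of all 14771 genes. Limma voom called 1 (0.250% of all genes) and DESeq2 0 (1.51%). The median of the 31 was -0.01, with a range from -1.47 to 1.68, and that of all genes was 0. With 3 libraries a group the test misses large changes: all 20 microglial genes were positive here, with a median of 3.47, and 0 were called. Dnm1, the GTPase that pinches off endocytic vesicles, had the highest point estimate at 1.68 ± 0.84 (edgeR adjusted p 0.67). Its 3 control MG_TRAP libraries stood at 2331, 852 and 1267 CPM and the control Input libraries at 501, 555 and 441. Syn1 likewise stood at 1342, 455 and 763 against 599, 209 and 276. The groups did not overlap for Dnm1 and overlapped for Syn1, and neither difference passed the test. Sv2a (178 to 226 against 271 to 310) and Rims1 (45.1 to 114 against 144 to 234) lay apart in the other direction. These overlaps were not set against those of all genes. In the synaptosome pull-down of control mice 0 of the 31 genes were called against SN_input by edgeR (0% of all genes called), 0 by limma voom (0.210%) and 1 by DESeq2 (8.63%), with a median of 0.57. By edgeR 2 of the 31 were higher at an unadjusted p under 0.05, against 2577 of all 14771 genes in either direction. Control PeMP_TRAP libraries varied widely, with Syn1 at 5.69, 191 and 1913 in A, B and C.

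In tamoxifen mice the homogenate pull-down held a smaller summed share of presynaptic reads than Input, while few single genes were called. The point estimate was negative for 30 of the 31, the median was -1.46 against -0.14 over all genes, and 6 genes were called lower and 0 higher (2.15% and 4.67% of all genes). The 6 were Cplx2 (-1.82 ± 0.55, edgeR adjusted p 0.033), Slc17a7 (-1.75 ± 0.40, 0.003), Rab3a (-1.73 ± 0.46, 0.011), Cplx1 (-1.66 ± 0.53, 0.047), Syp (-1.66 ± 0.41, 0.0062) and Syt1, the calcium sensor of release (-1.45 ± 0.42, 0.025). Without replicate F or without G, 3 were called, and the share of all genes called in those fits was not set beside this count. Fitted on the D to F libraries of all fractions, 0 were called (0.0308% of all genes lower), with 17 of the 31 lower at an unadjusted p under 0.05 by edgeR. That unadjusted threshold was met by 1830 of all 12968 genes in either direction. Fitted on Input and MG_TRAP alone, 23 were called lower (9.18% of all genes), with 7 in D to F (1.63%) and 22 in G to K (9.83%). The same libraries did not overlap for 15 genes, all lower in MG_TRAP (3.60% of all genes). RLE scaling moved the median of all genes by -0.52 and total counts by -0.32, and over all genes RLE called 594 higher and 528 lower against 733 and 338 under TMM.

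Syp, which shares 16.8% of its exon bases with the opposite-strand gene Gm14703, gives the pattern by library. Tamoxifen Input ranged from 399 to 636 CPM with a median of 468, and tamoxifen MG_TRAP from 79.6 to 225 with a median of 137. No MG_TRAP library reached the lowest Input library. Slc17a7 stood at 392.3 to 1074 in Input and at 69.7 to 336 in MG_TRAP, again without overlap. Bsn did not separate: its MG_TRAP libraries were at 6.56, 38.8 and 19.6 in D to F and at 127 to 423 in G to K, around Input at 91.5 to 230.2. By role, medians ran from -2.25 for the 2 glutamate transporters and -1.82 for the 6 SNARE genes to -1.34 for the 3 GABA genes, -1.33 for the 7 vesicle membrane genes and -0.82 for the 5 active zone genes, of which none was called. Differences between roles were not tested. The depletion was smaller in G to K than in D to F for 29 of the 31 point estimates, with a median difference of 0.99, and the share of reads held by the 31 was 0.519% to 1.10% in G to K and 0.221% to 0.365% in D to F. No gene of the 31 was called for this difference by edgeR (0% of all genes called) or limma voom (1.03%). By edgeR 1 of the 31 was higher at an unadjusted p under 0.05, against 1070 of all 17961 genes in either direction. The other neuronal lists had medians from 0.92 to 1.70, oligodendrocyte genes 1.34 and astrocyte genes 1.10, whereas the microglial list had -0.73 (18 of 20 negative), with 0 called in each by edgeR.

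Lists of other cell types had medians below 0 as well, though few of their genes were called (2.15% of all genes were called lower). The microglial list rose by a median of 6.56, with 20 of 20 called higher. The other presynaptic genes had a median of -1.48 (3 of 53 called lower), the postsynaptic genes -1.29 (1 of 30), the soma and axon genes -1.61 (1 of 20), the interneuron genes -1.84 (3 of 11), the oligodendrocyte genes -1.49 (2 of 15) and the astrocyte genes -1.28 (1 of 15), with 0 called higher in each. The 3 other presynaptic genes were the synaptotagmin Syt11 (-1.63), the neurexin Nrxn2 (-2.004) and the glutamate transporter Slc17a8 (-7.28, with no read in any of the 8 MG_TRAP libraries, so its fitted value is no bound). The median of the 31, -1.46, lay among the medians of these lists, and no difference between lists was tested.

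Tamoxifen was then compared with control within each fraction, replicates D to F against A to C. In MG_TRAP the median of the 31 was -2.33 against -0.14 over all genes. In the same comparison the medians were -2.34 for oligodendrocyte genes, -2.29 for soma and axon genes, -2.05 for astrocyte genes and 3.11 for microglial genes (20 of 20 positive), with 0 called in each list. edgeR called 0 of the 31 and 0% of all genes, with 19 of the 31 lower at an unadjusted p under 0.05, whereas limma voom called 12 (8.10%) and DESeq2 7 (5.92%). Among all 14771 genes, 2351 had an unadjusted p under 0.05 by edgeR in either direction. The 2 groups did not overlap for 24 genes that were lower with tamoxifen (13.3% of all genes) and for 1 that was higher, Syngr1 (15.3%). Snap25 stood at 4067, 2041 and 3276 CPM in the control libraries and at 475, 431 and 373 in D to F. Gad1 stood at 599, 124 and 336 against 19.95, 21.4 and 20.4. In both genes the lowest control library was above every tamoxifen library. The enrichment over Input, tamoxifen minus control, had a median of -2.27, with 0 of the 31 called by edgeR (0%), 2 by limma voom (0.278%) and 1 by DESeq2 (1.37%). At an unadjusted p under 0.05 edgeR gave 9 lower, against 1357 of all 14771 genes in either direction. In SN_input 0 genes were called by edgeR (0%), limma voom (0%) or DESeq2 (0.433%), with a median of -0.31. There 0 of the 31 had an unadjusted p under 0.05 by edgeR, against 495 of all 14771 genes.

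In PeMP_TRAP, 11 of the 31 were called lower in tamoxifen than in control libraries and 0 higher (5.56% and 5.56% of all genes), with a median of -2.75. The strongest were Amph, an endocytic adaptor (-5.62 ± 1.55, edgeR adjusted p 0.02), Dnm1 (-4.42 ± 0.94, 0.0068) and the vesicle glycoprotein Sv2a (-3.94 ± 0.92, 0.009), followed by Cacna1a, Gad1, Syn2, Nrxn3, Napb, Syp, Snap25 and Rab3a (-3.85 to -2.67). Dnm1 stood at 457, 959 and 1098 in A to C and at 11.9, 92.1 and 24.4 in D to F. The groups did not overlap for 9 of the 31 (4.27% of all genes). This result rests on few libraries: 1 gene was called without replicate F, 2 without C, 5 without D and 6 without B. Over all replicates left out, the count ran from 1 to 13. The share of all genes called in those fits was not set beside these counts, so a general loss of calls is not told apart. Fitted on the 6 libraries alone, edgeR called 0 (0.353% of all genes), with 7 of 28 tested lower at an unadjusted p under 0.05. In that fit 966 of all 6518 genes met the unadjusted threshold in either direction. The microglial list rose by a median of 3.70 in this comparison (14 of 20 called higher, 0 lower), from 0.140% to 1.28% of reads to 4.24% to 8.70%. Lists of other cells were lower: soma and axon genes by a median of -2.35 (5 of 20 called lower), astrocyte genes -1.48 (4 of 15), oligodendrocyte genes -2.11 (3 of 15), interneuron genes -2.55 (2 of 11) and endothelial genes -8.02 (5 of 9 tested), with 0 called higher in each. For the enrichment over SN_input, tamoxifen minus control, 0 of the 31 were called by edgeR (1.24% of all genes), 1 by limma voom (1.84%) and 5 by DESeq2 (12.4%). By edgeR 9 were lower at an unadjusted p under 0.05, against 2928 of all 14771 genes in either direction.

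**Figure D4:**
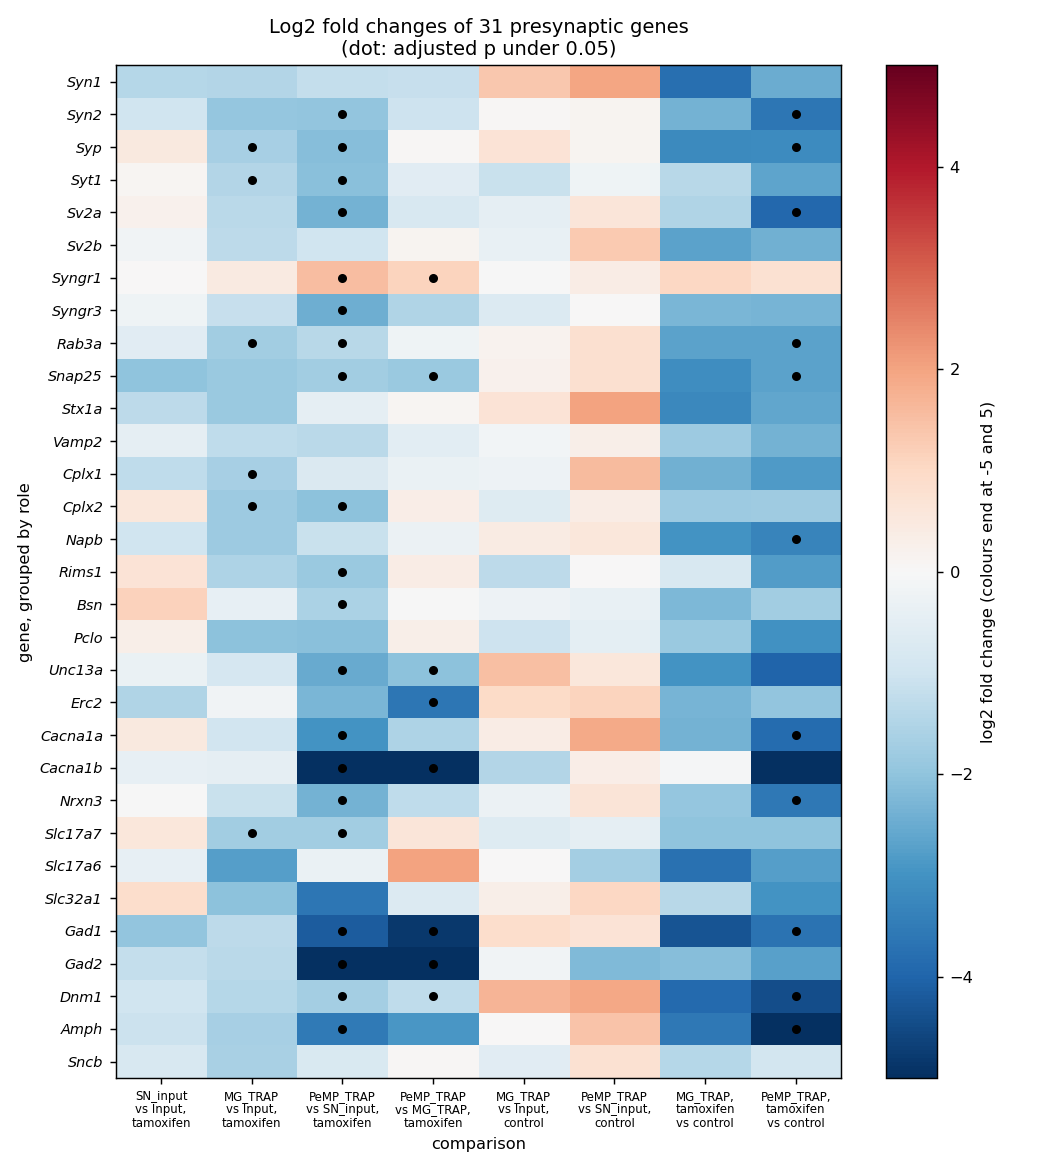
Colour map of log2 fold changes of the 31 genes (rows, grouped by role) in 8 comparisons (columns), blue for lower and red for higher, colours ending at -5 and 5, with a dot where the adjusted p was under 0.05. Of the 31 genes, 30 are blue in MG_TRAP against Input and 30 in PeMP_TRAP against SN_input, and Syngr1 is the red row with a dot.

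The synaptosome pull-down of tamoxifen mice was depleted of presynaptic RNA relative to its own input. Of the 31 genes, 19 were called lower in PeMP_TRAP than in SN_input and 1 higher, against 26.1% and 6.15% of all genes, and the median was -1.98 against -0.75. The lowest were the GABA enzyme gene Gad2 (-6.93 ± 1.33, edgeR adjusted p 0.00022), the N-type channel gene Cacna1b (-6.08 ± 1.54, 0.0026) and Gad1 (-4.17 ± 1.29, 0.011). Among vesicle genes Syp (-2.11 ± 0.41), Syt1 (-2.10 ± 0.43), Syngr3 (-2.45 ± 0.95), Sv2a (-2.35 ± 0.88) and Rab3a (-1.38 ± 0.45) fell. Both endocytosis genes and both calcium channel genes fell, with Amph at -3.54 ± 1.17, Dnm1 at -1.68 ± 0.47 and Cacna1a at -3.01 ± 1.12. So did 3 of the 5 active zone genes (Unc13a, Rims1 and Bsn, -2.53 to -1.60), 2 of the 6 SNARE genes (Cplx2 and Snap25), Syn2, Nrxn3 and Slc17a7. Fitted on these 16 libraries alone, 6 were called lower (15.4% of all genes), with 9 lower in G to K (22.2%) and 0 in D to F (0%). At an unadjusted p under 0.05 the D to F fit gave 4 lower and 1 higher. With 1354 of all 8968 genes at that threshold in either direction, the 31 were near the share of all genes. The libraries did not overlap for 6 genes, Snap25, Cplx2, Cacna1b, Slc17a7, Gad2 and Dnm1 (3.55% of all genes).

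The libraries behind these calls were uneven. Slc17a7 stood at 743 to 1050.0 CPM in tamoxifen SN_input with a median of 894, and at 42.4 to 408 in PeMP_TRAP with a median of 302. Vamp2, the vesicle SNARE, ranged from 0 to 648 in PeMP_TRAP and overlapped SN_input at 462 to 1202, and it was not called (-1.34 ± 0.59, edgeR adjusted p 0.079). Of the 31 genes, 25 to 30 exceeded the floor of 3 counts in D to F PeMP_TRAP and 15 to 24 in G to K, although the G to K libraries were sequenced more deeply (20442643 to 35584637 assigned reads against 746616 to 12602839). In each G to K library 7 to 14 of the genes had no read. The same was seen over all genes, with 5372 to 7369 detected in the G to K PeMP_TRAP libraries and 11694 to 13096 in D to F, so it was not particular to the 31. Against the 53 other presynaptic genes (median -1.98, 22 called lower), the postsynaptic genes (-1.80, 13 of 30), the soma and axon genes (-1.93, 9 of 20) the astrocyte genes (-2.41, 8 of 15), the interneuron genes (-2.35, 8 of 11), the oligodendrocyte genes (-2.96, 13 of 15) and the endothelial genes (-4.96, 7 of 11 tested), the median of the 31 lay among these values, while the microglial list rose by 3.47 (20 of 20 called higher).

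Some genes read in D to F PeMP_TRAP were without a read in G to K. Gad1, Gad2, Slc32a1 and Cacna1b had no read in any of the 5 G to K libraries. The Gad1 mean in G to K SN_input was 279-fold the highest floor among those libraries, 0.154 CPM. The ratio was 225-fold for Cacna1b, 209-fold for Gad2 and 93.8-fold for Slc32a1. These ratios cover counting error only and do not bound the RNA level. Abundant genes also lacked reads there, with Snap25 at 0 in K and Vamp2 at 0 in J and 648 in I. In D to F PeMP_TRAP, Gad1 stood at 2.24, 17.5 and 24.4, Gad2 at 1.57, 2.19 and 4.89, and Slc32a1 at 0, 32.2 and 0. Gad2 rested on 7, 3 and 3 reads, so E and F were at the floor of 3 counts. Gad1 rested on 10, 24 and 15 reads. The glutamatergic gene Slc17a7 was present in all 8 libraries, at 103 to 408 in G to K. The test of the difference between sets called 4 of the 31 lower in G to K (Gad1, Slc32a1, Cacna1b and Gad2) and 0 higher, against 14.9% and 0.189% of all genes, so the share called lower was no higher than among all genes. The interneuron list did not follow these genes: 8 of its 11 were positive in that test, with a median of 1.19, 1 called lower and 0 higher. Input, SN_input and MG_TRAP of the same letters all held Gad1: 196 to 217, 36.2 to 53.0 and 41.6 to 123 in G to K.

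The pull-downs of the whole homogenate and of the synaptosome fraction were also compared with each other. PeMP_TRAP was below MG_TRAP for 7 of the 31 genes and above it for 1 (22.0% and 3.17% of all genes), with a median of -0.55 against -0.57 over all genes. The share called lower was near that of all genes. The 7 were Gad2 (-6.77 ± 1.37), Cacna1b (-6.04 ± 1.64), Gad1 (-4.82 ± 1.43), the active zone gene Erc2 (-3.61 ± 1.34), the priming factor gene Unc13a (-2.04 ± 0.64), Snap25 (-1.86 ± 0.64) and Dnm1 (-1.26 ± 0.46). In the fit of D to F alone the median of the 31 was 0.32, Snap25 showed no detectable difference (0.064, edgeR adjusted p 0.99), and 0 of the 31 were called by edgeR (0% of all genes). There 1 of the 31 was higher at an unadjusted p under 0.05, against 1377 of all 12968 genes in either direction. Fitted on these pull-downs alone, 2 genes of the 31, Gad1 and Gad2, were called lower (9.41% of all genes). Counts in the fit of all tamoxifen libraries fell to 3 without replicate G or I and to 5 without J, and rose to 9 without E, while 20.3% of all genes were called without G, 19.6% without I, 20.7% without J and 30.9% without E. The difference depended on the set for 6 genes, all lower in G to K (Gad1, Cacna1b, Slc32a1, Gad2, Erc2 and Syngr3; 14.8% of all genes lower, 0.423% higher). Taking each pull-down relative to its own input, the synaptosome enrichment was below the whole enrichment for 2 genes, Cacna1b (-5.62 ± 1.88, edgeR adjusted p 0.044) and Gad2 (-5.60 ± 1.57, 0.016), and above it for 0, against 10.9% and 0.388% of all genes. The share of the 31 called lower was below that of all genes. Both genes had no read in G to K PeMP_TRAP, so their fitted values are no bounds. Without replicate G, H or I none was called, 1 without J or K, and 4 without E. With the replicate block none was called. The shares of all genes called in those fits were not set beside these counts.

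Syngr1, which encodes the vesicle protein synaptogyrin, was the exception among the 31. Tamoxifen MG_TRAP held it at 307 to 599.8 CPM with a median of 329, against 198 to 327 in Input with a median of 293 and 154, 224 and 184 in control MG_TRAP. The difference from Input was 0.46 ± 0.34 (edgeR adjusted p 0.60), and it was -0.06 under RLE scaling. In tamoxifen PeMP_TRAP it ranged from 294 to 2092 with a median of 694, against 174 to 323 in SN_input. It was called higher than SN_input (1.53 ± 0.35, edgeR adjusted p 0.0011) and than MG_TRAP (1.10 ± 0.34, 0.015), but the former was 1.01 ± 0.33 (0.051) in G to K and 2.27 ± 1.03 (0.30) in D to F when only these fractions were fitted, so it was called in neither set, and the latter was 0.53 under RLE and 0.29 under total counts and not called there. Control PeMP_TRAP held 4.06, 835 and 736, so tamoxifen and control libraries overlapped. Syngr1 made up 1.44% to 2.33% of the reads of all 31 genes in tamoxifen Input, 4.08% to 15.8% in tamoxifen MG_TRAP and 10.7% to 39.8% in tamoxifen PeMP_TRAP. The other 30 genes are the rest of that total. Their point estimates were negative in both pull-downs against the inputs, with 6 called lower in MG_TRAP and 19 in PeMP_TRAP. These shares therefore do not show a rise of Syngr1 itself. Its exons overlap no other annotated gene.

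**Figure D5:**
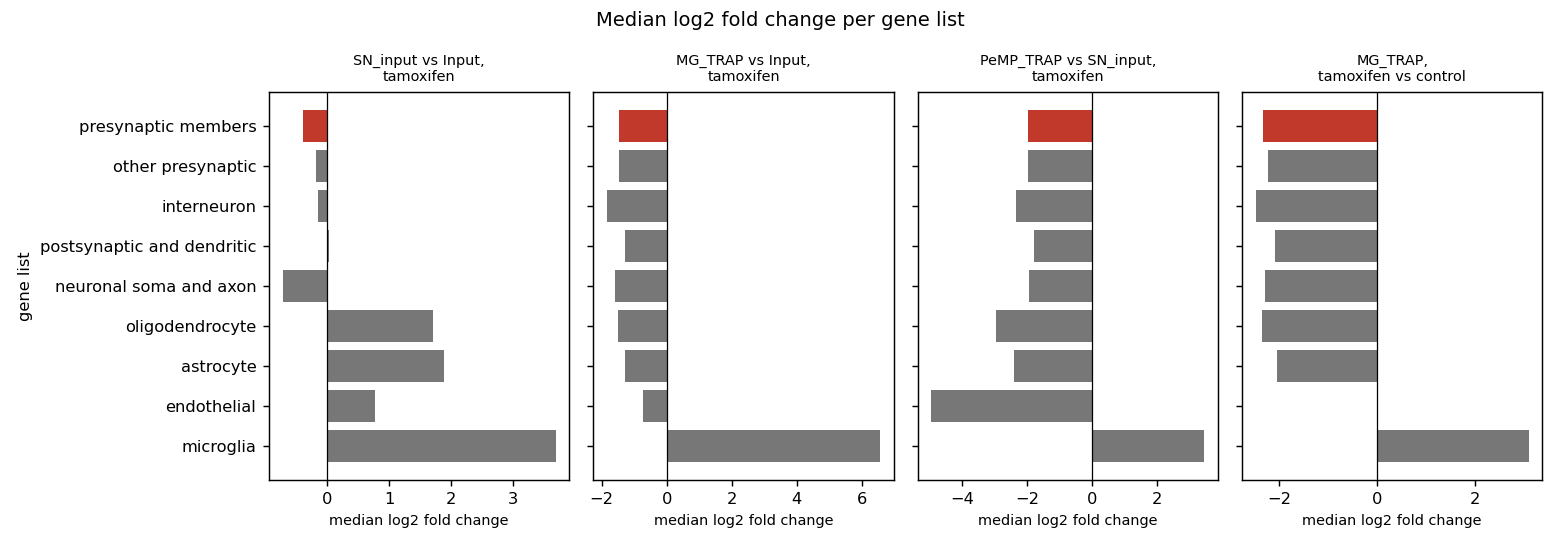
Median log2 fold change of the 31 genes (red bars) and of 8 other gene lists (grey bars) in 4 comparisons, 1 panel each with its own axis. The microglial list stands at 6.56 in MG_TRAP against Input and at 3.47 in PeMP_TRAP against SN_input, while the 31 genes stand at -1.46 and -1.98, beside the other neuronal lists.

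Other genes of the presynaptic pathway were a list of 53 that shares no member with the 31. In PeMP_TRAP against SN_input 22 of the 53 were called lower and 0 higher (26.1% and 6.15% of all genes), among them the small GTPase Rab3c (-5.83), Rims3 (-5.23) and Syt11 (-2.07). In PeMP_TRAP against MG_TRAP 9 were called lower and 1 higher, against 22.0% and 3.17% of all genes, which sets the list no lower than genes at large. Among them were Rab3c at -5.02, the clathrin adaptor Snap91 at -3.15 and the neurexin Nrxn2 at 1.84. In PeMP_TRAP, tamoxifen against control, 16 were called lower and 1 higher (5.56% and 5.56% of all genes). Synj1, a lipid phosphatase of vesicle uncoating, stood at -4.58 and Snap91 at -4.52, while the scaffold gene Lin7a stood at 7.08. Synaptosome against homogenate called none of the 53 in either direction.

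For the A to F replicates the authors' deposited table gives fold changes for 13634 genes, the 31 included. Its headers name tamoxifen for MG_TRAP and PeMP_TRAP and name no treatment for Input and SN_input. In the authors' deposited table, 6 of the 31 were lower in MG_TRAP than in Input (2.44% of its genes), 14 lower in PeMP_TRAP than in SN_input (8.27%) and 0 lower in SN_input than in Input (0.198%) at an adjusted p under 0.05, and 0 were higher. The authors' deposited table gives medians for the 31 of -2.44, -2.14 and -0.13 in the same order. Syngr1 is listed in the authors' deposited table at 1.01 in MG_TRAP against Input and at 1.69 in PeMP_TRAP against SN_input, with adjusted p-values of 0.46 and 0.106.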

How the data were processed

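The authors deposited raw read counts per Ensembl gene for each library. Per the submitters' processing notes the tools were FastQC 0.11.7, Trimmomatic 0.38, Bowtie2 2.3.5, STAR 2.7.0d, HTSeq 0.9.1 and edgeR; their order, the genome build and the annotation are not given in the sources used here. The authors also deposited a table of log2 fold changes and p-values for replicates A to F. Per the labels' protocols, cDNA came from SMART-Seq v4, which does not mark strand. Rows that name no gene were left out, as were identifiers not shared by both sets (0.0232% to 0.795% of reads). Coordinates are those of GENCODE M21 (GRCm38). Counts were fitted with edgeR 4.0.16 in R 4.3.3 (quasi-likelihood, TMM, filterByExpr with a minimum count of 10, Benjamini-Hochberg over all genes tested, threshold 0.05): 32 tamoxifen libraries with the set as a covariate (15710 genes), and 24 A to F libraries for comparisons with control (14771 genes). Levels are TMM-scaled CPM over all 44 libraries. limma 3.58.1 and DESeq2 1.42.0 were alternatives, with RLE or total-count scaling, no filter, each set alone, only the groups compared, a replicate block, and each replicate left out. Scripts were tested on simulated data, with 100 genes changed by 2 and 100 by 4 on the log2 scale. Of these, 1% and 24% were called for SN_input against Input with tamoxifen. The values were 2% and 23% both for MG_TRAP against Input and for PeMP_TRAP against SN_input. For MG_TRAP, tamoxifen against control, they were 1% and 3%. A count of 0 called therefore does not show that nothing changed. All 31 genes are accounted for, and named genes are the 31 members and called genes of the other presynaptic list, beside a microglial gene that checks the pull-down and 2 genes that overlap members. The members and lists were chosen with earlier results of these data known.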

Additional observations from a re-analysis of the deposited data

Results flagged for a closer look

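Several tamoxifen libraries stood apart from the other 7 of their group, by a gap to the nearest library over 0.526 of the group's range. All 31 genes and their summed share of reads were screened in the 4 fractions. A library stood apart in 32 of 128 such groups, where chance gives about 1 in 20. In Input, replicate D held Syn1 at 599 CPM (others 211 to 308), Vamp2 at 1662 (646 to 956) and Slc17a7 at 1074 (392.3 to 665). Input E held Slc17a6 at 53.9 (13.7 to 25.6) and Rims1 at 289 (99.7 to 157), and Input F held Sv2b at 123, below the others (201 to 239). In SN_input, D held Vamp2 at 1202 (462 to 738), Snap25 at 1078 (644 to 781), Rab3a at 1054 (214 to 519.9), Syngr3 at 632 (104 to 173), Dnm1 at 381 (107 to 212) and Amph at 145 (17.5 to 62.5). SN_input F held Gad1 at 142 (18.2 to 57.3) and Syngr1 at 174, below the others (261 to 323). In MG_TRAP, E held Syngr1 at 599.8 (307 to 419.5) and Slc32a1 at 11.4 (0 to 4.01). In PeMP_TRAP, D held Syngr1 at 2092 (294 to 834), Sv2b at 597 (0 to 109) and Syp at 482 (37.5 to 174). PeMP_TRAP E held Syt1 at 1083 (65.8 to 399), Nrxn3 at 181 (0 to 54.6), Erc2 at 167 (0 to 6.52), Cacna1a at 76.0 (0 to 34.2), Cacna1b at 5.85 (0 to 1.63) and Slc32a1 at 32.2, with no read in the others. PeMP_TRAP F held Gad2 at 4.89 (0 to 2.19), which was 3 reads, at the floor. H held Slc17a6 at 90.4 (0 to 6.58) and Amph at 31.9 (0 to 4.89). PeMP_TRAP I held Stx1a at 546 (0 to 179), Napb at 438 (0 to 186), Sv2a at 345 (0 to 162) and Rims1 at 211 (2.50 to 87.5). Of the 32 values, 26 were in replicates D to F. The chance rate takes the 8 libraries of a group as alike, whereas D to F and G to K differ in spread and depth, so it does not hold closely here.

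Effects that differed between conditions by a fitted interaction (edgeR) follow, on the log2 scale. The synaptosome enrichment was below the whole enrichment for Cacna1b (-5.62) and Gad2 (-5.60), and neither call held without replicate G, H or I. PeMP_TRAP against SN_input was lower in G to K than in D to F for Gad1 (-10.14), Slc32a1 (-9.70), Cacna1b (-8.03) and Gad2 (-7.17). PeMP_TRAP against MG_TRAP was lower in G to K for Gad1 (-13.03), Cacna1b (-10.50), Slc32a1 (-9.29), Gad2 (-9.07), Erc2 (-6.63) and Syngr3 (-5.69). Where a gene had no read in a group, the fitted value depends on the prior count and is no bound.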

How the results depend on the processing

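Numbers are genes of the 31 called. SN_input against Input in tamoxifen mice gave 3 with RLE (1.55% of all genes called), total counts and DESeq2 (3.24%), and 1 without a filter, with limma voom (1.33%) and in G to K alone. It gave 14 with only the groups compared (11.7% higher, 7.31% lower) and 26 with these in G to K (24.7% and 23.3%). Syt1 (-0.21) and Sv2a (-0.38) were negative in that G to K fit. MG_TRAP against Input gave 11 with RLE (7.14% of all genes called) and total counts, 10 without a filter, 12 with limma voom and DESeq2, and 0 in D to F alone (0.0308% lower). It gave 23 with only the groups compared (9.18% lower) and 22 with these in G to K (9.83% lower). PeMP_TRAP against SN_input gave 30 with limma voom, 23 with DESeq2 and 0 in D to F by either fit. It gave 7 with only the groups compared (15.4% of all genes lower) and 9 with these in G to K (22.2% lower). PeMP_TRAP against MG_TRAP gave 19 with limma voom (44.2% of all genes called), 0 in D to F by either fit, 13 in G to K (42.6%), 2 with only the groups compared (10.5%) and 3 with these in G to K (14.7%); its median was 0.32 and 0.31 in the D to F fits, Snap25 was 0.064 in D to F, Syp -0.77 in G to K and Stx1a -4.69 with limma voom. The enrichment difference gave 1 with total counts (9.43%), 8 with limma voom (12.1%), 0 in D to F (0%), 7 in G to K (29.5%) and 0 with the replicate block (4.11%). Tamoxifen against control in MG_TRAP gave 12 with limma voom and 7 with DESeq2, and in PeMP_TRAP 17 with total counts (11.4%), 6 without a filter (6.46%), 7 with limma voom (8.21%), 20 with DESeq2 (27.8%) and 0 with only the groups compared (0.353%). Limma voom gave 1 for control MG_TRAP against Input, 2 for the whole enrichment, 1 for the synaptosome enrichment, and 9 (41.9%) and 14 (25.6%) for the set differences of PeMP_TRAP against SN_input (median -1.66) and MG_TRAP. DESeq2 gave 1 for control PeMP_TRAP against SN_input, 1 for the whole and 5 for the synaptosome enrichment, where RLE gave 1. Counts near or below the share of all genes show nothing particular to the 31. Counts printed without that share are not read as a result about the 31. The cause of these changes was not tested.

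Leaving out each replicate gave 0 to 1 for SN_input against Input, 3 to 6 for MG_TRAP against Input, 15 to 22 for PeMP_TRAP against SN_input, 3 to 9 for PeMP_TRAP against MG_TRAP, 0 to 4 for the enrichment difference, 1 to 13 for PeMP_TRAP against control, 0 to 1 for the synaptosome enrichment, and 0 to 0 elsewhere. These ranges were not set against the share of all genes called. Same-lettered libraries did not deviate together in every pair, with correlations from -0.04 to 0.22. The closest library bore the same letter in 6 of 8 tamoxifen replicates for SN_input and for MG_TRAP, each against Input. This held in 5 of 8 for PeMP_TRAP against MG_TRAP and 2 of 8 for PeMP_TRAP against SN_input. In controls it held in 2 or 3 of 3. A pairing by letter is thus possible, and the main fits do not use it. The replicate block gave 0, 8, 23, 8 and 0 for the tamoxifen comparisons, in the order above, also without those shares. Over all genes, PeMP_TRAP against MG_TRAP called 498 higher and 3454 lower, against 287 and 4168 with RLE and 195 and 4284 with total counts; PeMP_TRAP against control called 822 and 821, against 713 and 964 with total counts. Low depth limits replicate F of PeMP_TRAP, with 746616 assigned reads.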
